A study of Mus musculus with 6 samples.

Results

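The enzymes described here form NADPH or belong to the pentose phosphate pathway: the oxidative enzymes G6pdx, Pgls and Pgd, the non-oxidative enzymes Tkt, Taldo1 and Rpia, and the isocitrate dehydrogenases Idh1 and Idh2. These 8 genes were listed by name for their function, with earlier results of these data known, and are 8 of the 24179 features (a gene, or a probe without a gene name) that were tested. Each was measured by 1 probe with 1 spot on each array, and all 8 probes were well above background on all 6 arrays and saturated on none. The probes of the pair with the largest differences were A_51_P187082 for G6pdx (transcript NM_008062) and A_51_P132978 for Idh1 (transcript NM_010497). The question was whether the transcripts of NADPH supply sided with oxidative defence, whose median was above that of all features with LDL, or with lipid synthesis, whose median was below it.

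Mouse neural precursor cells from the adult hippocampus were used, a dividing cell of the dentate gyrus from which new neurons can form. They were taken from the dentate gyri of male C57BL6/JRj mice that were 8 weeks old, and both groups were grown in the same way, attached to the dish in medium with EGF and bFGF, growth factors that keep them dividing, at 20 ng/ml for each. One group received human LDL, the lipoprotein that carries cholesterol in blood, for 48 h, and the other received saline for the same time. The treatment protocol gives the LDL dose as 100 ug/ml, while the sample descriptions write another unit of volume, so the unit is uncertain by the labels themselves. Each group held 3 arrays from separate experiments on different passages of cultured cells, so the spread between arrays is that between experiments. LDL of human origin on mouse cells in culture is the limit of the model, and how many mice gave cells to each experiment is not stated in the sources used here.

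Across the arrays, 55.9% to 66.9% of the 55681 probes were well above background, lowest on saline 2 and highest on saline 3. The cells carried the RNA of precursor markers: 9 of 10 were tested, among them nestin (Nes), Sox2 and the radial glial lipid-binding protein Fabp7, and their summed level ran from 343 to 415 with saline and from 364 to 396 with LDL, in units of the array's 75th percentile. Of the neuron markers, Dcx and Neurod1 were above background on no array, and the summed level of the other 6 of 8 was 25.1 to 33.1 with saline and 24.6 to 27.9 with LDL. The summed level of the 7 astrocyte markers was 160 to 185 with saline and 130 to 147 with LDL, a sum set mainly by the bright probes of Aldoc and Slc1a3. These had separated groups (-0.24 and -0.33 on the log2 scale, neither called), while 4 of the 7, Aqp4, S100b, Slc1a2 and Gja1, overlapped. For Gfap, the astrocyte filament protein, the probe of highest mean rose by 1.35 on the log2 scale (limma, adjusted p = 0.0213), but another probe for a different transcript, also above background on all arrays, was at 0.15. Summed levels of 8 oligodendrocyte markers (33.2 to 37 and 33 to 34.4) and of 4 of 7 microglia markers (19.8 to 24.6 and 19.5 to 23.8) overlapped, P2ry12 being above background on no array. For 3 of 6 vascular markers they were 14.3 to 15 and 13.6 to 14.3, with Cdh5 and Pdgfrb above background on no array. In bulk RNA, fewer cells of a type and less RNA per cell cannot be told apart, and the part of the astrocyte markers in the results was not tested.

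NADPH is the electron donor with which cells both build lipids and regenerate the reduced glutathione and thioredoxin that remove peroxides. The oxidative branch of the pentose phosphate pathway forms it in the cytosol while oxidising glucose 6-phosphate, and the non-oxidative branch shuffles the resulting sugars back towards glycolysis or on to ribose for nucleotides. The NADP-dependent isocitrate dehydrogenases form it from isocitrate, Idh1 in the cytosol and peroxisomes and Idh2 in mitochondria. As background, genes of the oxidative branch are known targets of the oxidative stress factor NRF2, and Idh1 is a known target of the sterol-regulated SREBP factors.

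The enzymes had no direction in common. G6pdx and Pgd were higher on each LDL array than on any saline array, Idh1 and Idh2 were lower on each, and Pgls, Tkt, Taldo1 and Rpia had groups that overlapped. G6pdx and Idh1 differed most, in opposite directions, at 2.06-fold higher and 2.34-fold lower. By limma with Benjamini-Hochberg adjustment over all features, 0 of the 8 passed an adjusted p of 0.05, 2 of them had an unadjusted p below 0.05 (G6pdx and Idh1), and the smallest adjusted p was 0.109. Across all 24179 features 5 were called higher, which is 0.0207%, and 28 were called lower, which is 0.116%, so a count of 0 among 8 genes is what the background share alone would give. Groups that did not overlap were found in 5.83% of all features in the higher direction and 8.78% in the lower direction, against 2 of 8 and 2 of 8 here. The median log2 fold change of the 8 enzymes, LDL minus saline, was 0.14, beside -0.027 for all features.

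**Figure D1:**
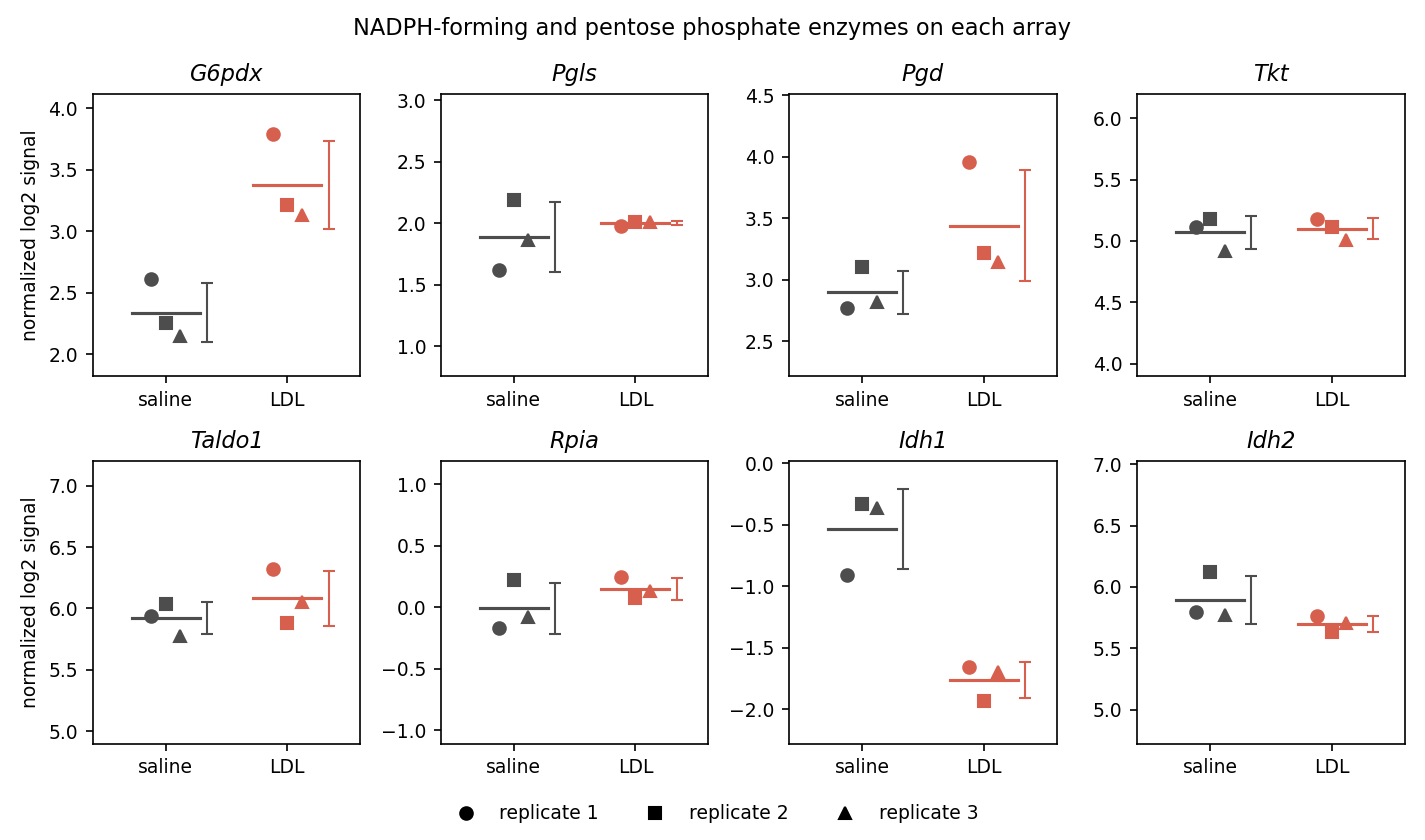
Normalized log2 signal (log2 of the processed signal minus the array's 75th percentile) of the 8 enzymes on the 3 saline (grey) and 3 LDL (red) arrays, where symbols mark replicates 1, 2 and 3, horizontal lines the group means and bars 1 SD on each side. Each panel has its own level but spans the same height. G6pdx and Pgd lie higher on all LDL arrays, Idh1 lies lower on all of them, and Tkt, Taldo1, Rpia and Pgls overlap.

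G6pdx encodes glucose-6-phosphate dehydrogenase, the enzyme that commits glucose to the pathway and forms its first NADPH. Its normalized log2 signal was 2.61, 2.25 and 2.15 on saline arrays 1, 2 and 3 and 3.79, 3.21 and 3.13 on LDL arrays 1, 2 and 3. The lowest LDL array stood clear of the highest saline array, and within each group array 1 was the highest. The means were 2.34 ± 0.24 (SD, n = 3) with saline and 3.38 ± 0.36 (SD, n = 3) with LDL. The fitted difference was 1.04 (SE 0.21, 95% interval 0.55 to 1.54), a signal 2.06-fold higher (1.47 to 2.9), with an unadjusted p of 0.00157 and an adjusted p of 0.266 in limma. Before scaling between arrays the processed signals were 4641, 3475 and 4200 with saline and 13258, 7815 and 8445 with LDL, so the separation was present in the scanner values. The arrays sat in 2 rows of 1 slide, with replicates 1 and 2 of both groups in row 1 and replicate 3 of both in row 2, and the difference was 1.07 within row 1 and 0.99 within row 2. Without LDL 1 it was 0.84.

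Pgls, the lactonase that opens the product of G6pdx, gave 1.62, 2.19 and 1.86 with saline and 1.98, 2.01 and 2.01 with LDL. All 3 LDL values lay inside the saline range, and the LDL arrays were nearly identical while the saline arrays were spread out. The means were 1.89 ± 0.29 and 2.00 ± 0.016 (SD, n = 3 each), a difference of 0.11 (95% interval -0.25 to 0.47; limma, adjusted p = 0.919). The sign rested on 1 array: without saline 1 the difference was -0.025. The interval does not reach the 1.04 estimated for G6pdx, the step before it, but whether these steps differed was not tested.

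Pgd encodes 6-phosphogluconate dehydrogenase, which forms the second NADPH of the branch. It read 2.77, 3.10 and 2.82 with saline and 3.96, 3.22 and 3.14 with LDL. LDL 1 stood far above the rest, while LDL 2 and LDL 3 were only slightly above the highest saline array. The difference was 0.54 (SE 0.23, 95% interval -0.0023 to 1.09), or 1.46-fold, with an unadjusted p of 0.0507 and an adjusted p of 0.666 in limma. Its size depended on LDL 1: without that array it was 0.28, and within slide rows 1 and 2 it was 0.65 and 0.32. The oxidative branch as a whole thus held 2 genes with separated groups out of 3, both higher, beside 5.83% of all features in that direction. Its median of 0.54 is the value of Pgd itself.

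In the non-oxidative branch 0 of 3 genes had separated groups. With 5.83% of all features separated in the higher and 8.78% in the lower direction, the background share alone would give such a count. Tkt encodes transketolase, which moves carbon pairs between sugar phosphates, and was 5.11, 5.18 and 4.92 with saline and 5.18, 5.11 and 5.01 with LDL. Its difference was 0.03 (SE 0.11, 95% interval -0.23 to 0.29; limma, adjusted p = 0.974), and the sign turned in row 1 alone (-0.0043), without saline 3 (-0.048) and without LDL 1 (-0.0092). Of all 8 enzymes it had the narrowest interval, which leaves room for a difference of at most 0.29 on the log2 scale in either direction.

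Taldo1, the transaldolase that works beside transketolase, was 5.94, 6.04 and 5.78 with saline and 6.32, 5.88 and 6.05 with LDL. LDL 1 was again the highest array, and LDL 2 lay below saline 2. The difference was 0.16 (95% interval -0.17 to 0.50; limma, adjusted p = 0.85) and 0.047 without LDL 1. Rpia, the isomerase that makes ribose 5-phosphate, was -0.17, 0.22 and -0.079 with saline and 0.25, 0.073 and 0.13 with LDL, which also overlap. Its difference was 0.16 as well (95% interval -0.15 to 0.47; limma, adjusted p = 0.839), but 0.082 without saline 1 and 0.28 without saline 2. The median of the branch was 0.16, beside 0.54 for the oxidative branch, and the difference between branches was not tested. Without LDL 1 these medians were 0.047 and 0.28, and without saline 1 they were 0.082 and 0.48.

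Idh1 went the other way from G6pdx. It encodes the cytosolic and peroxisomal isocitrate dehydrogenase, and its normalized log2 signal was -0.91, -0.33 and -0.36 on saline arrays 1, 2 and 3 and -1.66, -1.93 and -1.70 on LDL arrays 1, 2 and 3. All LDL arrays lay below all saline arrays, and the lowest saline array was saline 1. The means were -0.54 ± 0.33 (SD, n = 3) with saline and -1.76 ± 0.15 (SD, n = 3) with LDL. The fitted difference was -1.23 (SE 0.18, 95% interval -1.65 to -0.80), a signal 2.34-fold lower (1.75 to 3.14). Among all features its unadjusted p of 0.000248 ranked 55, and its adjusted p in limma was 0.109. It passed the threshold when saline 1 was left out (-1.42, adjusted p = 0.0303) and with trended and robust variances in limma (adjusted p = 0.0382), while over all alternatives its adjusted p ran from 0.0303 to 0.999. Processed signals before scaling were 405, 579 and 738 with saline and 303, 221 and 296 with LDL, and the difference was -1.17 in slide row 1 and -1.34 in row 2.

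Idh2, the mitochondrial isocitrate dehydrogenase, was 5.80, 6.12 and 5.77 with saline and 5.76, 5.63 and 5.71 with LDL. Its groups did not overlap, but the highest LDL array and the lowest saline array nearly touched. The difference was -0.19 (SE 0.13, 95% interval -0.49 to 0.10; limma, adjusted p = 0.798). It was -0.26 in slide row 1 and -0.062 in row 2, and -0.081 without saline 2. The interval of Idh2 did not reach that of Idh1, whose upper bound was -0.80, and the difference between these genes was not itself tested.

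**Figure D2:**
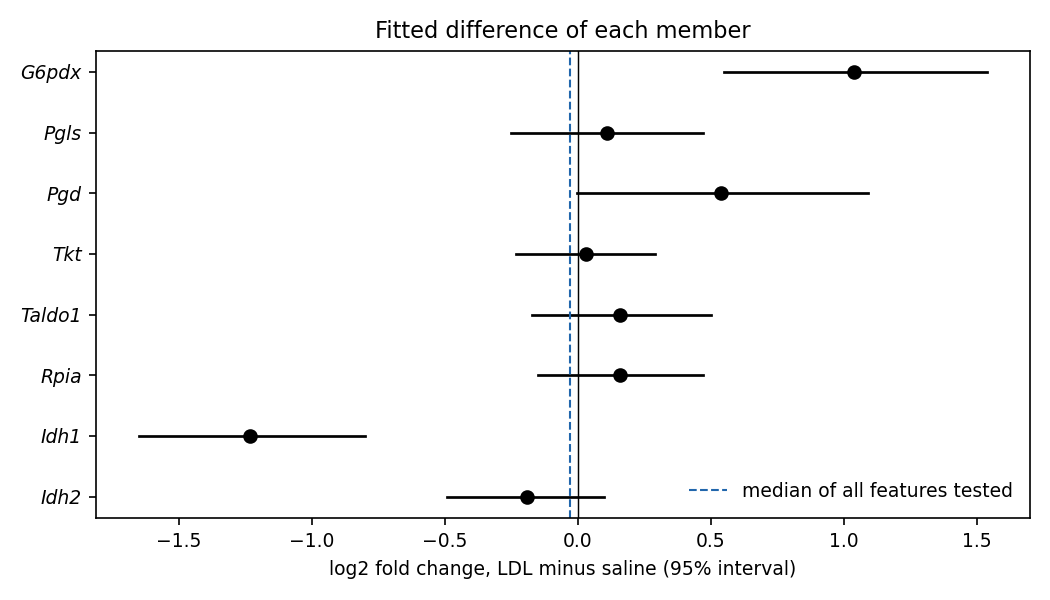
Fitted log2 fold change, LDL minus saline, of the 8 enzymes (points) with 95% intervals from limma (bars), beside the median of all features tested, -0.027 (dashed line). Only the intervals of G6pdx (0.55 to 1.54) and Idh1 (-1.65 to -0.80) leave out 0, in opposite directions, and neither gene passed after adjustment over all features.

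G6pdx and Idh1 can also be compared within each array, where scaling between arrays drops out. The G6pdx signal minus the Idh1 signal on the log2 scale was 3.52, 2.58 and 2.51 on the saline arrays and 5.45, 5.14 and 4.83 on the LDL arrays. The lowest LDL array was above the highest saline array. Since a probe's level depends on its own brightness, only the change of this difference carries meaning: from 2.87 ± 0.56 to 5.14 ± 0.31 (SD, n = 3 each), the mean was 2.27 higher with LDL, or 4.83-fold. Since both genes already had separated groups in opposite directions, the groups of this difference had to separate too. The two-sided exact permutation p of 0.1, the smallest for 3 against 3 arrays, therefore adds nothing to the values of each gene. Leaving out each array in turn gave 2.09 to 2.60. The pair of genes was chosen with earlier results of these data known.

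Named genes with the most similar array profiles were then listed for both enzymes, by the root mean square distance over the 6 arrays between profiles centred on their own means, among 14913 named features. Closest to G6pdx, whose own profile had a root mean square of 0.578 about its mean, was Gclc at 0.070, the catalytic subunit of the rate-limiting enzyme of glutathione synthesis. Next came Dscam, a neuronal adhesion molecule, at 0.073, Cst6, a secreted protease inhibitor, at 0.102, and Scmh1, a Polycomb protein, at 0.104. Their log2 fold changes were 0.99, 0.96, 1.20 and 0.94, and in limma their adjusted p ran from 0.114 for Cst6 to 0.47 for Scmh1, so none passed.

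Closest to Idh1, whose own root mean square was 0.648, was Nsdhl at 0.121, which removes a methyl group from sterol precursors. Sez6, a neuronal membrane protein, followed at 0.137, then Mvd, which makes the isoprene unit of sterols, at 0.148, and Fdft1, which makes squalene, at 0.160. Their log2 fold changes were -1.32, -1.20, -1.07 and -1.44. Mvd passed in limma (adjusted p = 0.0332), and the other 3 had adjusted p of 0.126, 0.0787 and 0.0766. These 4 genes shared with Idh1 a smaller excess on saline 1 than on saline 2 and 3. Since the genes were picked for likeness over these same 6 arrays, their shared traits follow from that choice. Similar profiles are a description and carry no test.

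**Figure D3:**
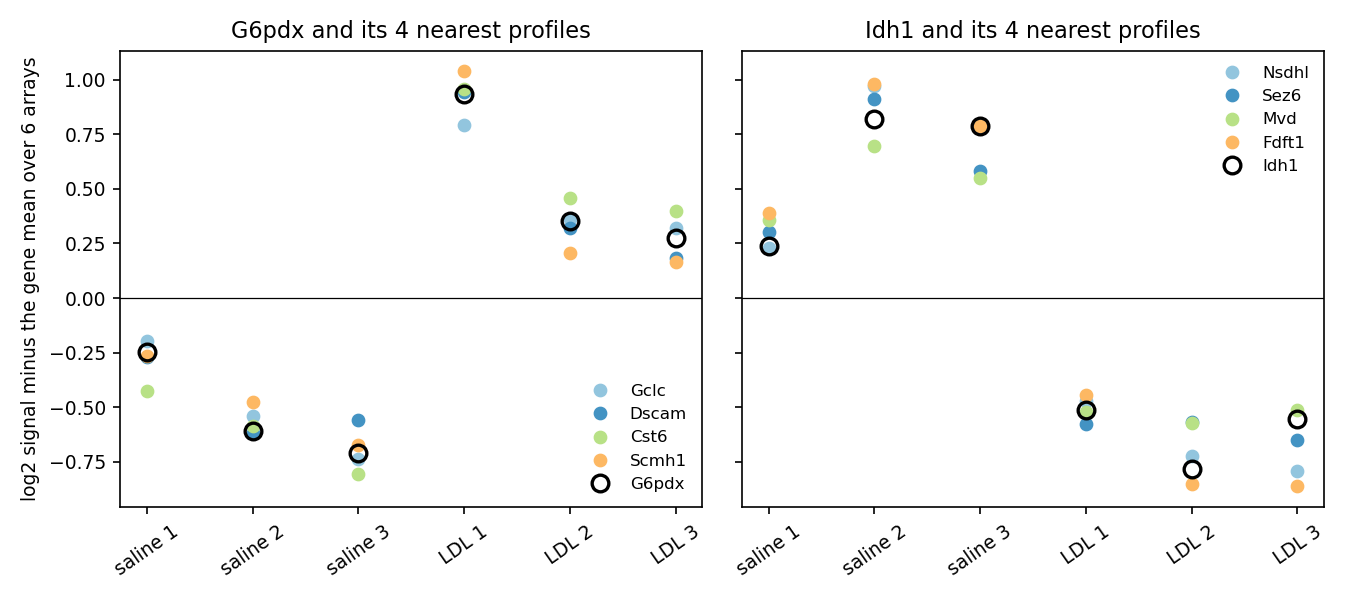
Log2 signal minus the gene's mean over the 6 arrays for G6pdx (left, open circles) and Idh1 (right, open circles), each with its 4 nearest named genes (filled circles) on each array. Gclc, Dscam, Cst6 and Scmh1, around G6pdx, are all highest on LDL 1. Nsdhl, Sez6, Mvd and Fdft1, around Idh1, are all lower on the LDL arrays than on the saline arrays. The genes were picked for likeness over these arrays, so the shared patterns follow from that choice.

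Promoters are shown for the enzymes at the ends of the range, G6pdx and Idh1, and for Hmgcs1, a sterol synthesis gene that fell with LDL, to show what letters are and are not there. The sequences are RefSeq's on GRCm38.p6, printed 5′ to 3′ along the gene in lower case: the 150 bases before the start site for G6pdx (chrX:74428881-74429030, minus strand) and Idh1 (chr1:65186480-65186629, minus strand), and 80 bases upstream of Hmgcs1 (chr13:119690171-119690250, plus strand). Capitals mark a match to the antioxidant response element core TGACNNNGC in G6pdx, read on the opposite strand, and to the sterol element core TCACNCCAC in Hmgcs1.
G6pdx: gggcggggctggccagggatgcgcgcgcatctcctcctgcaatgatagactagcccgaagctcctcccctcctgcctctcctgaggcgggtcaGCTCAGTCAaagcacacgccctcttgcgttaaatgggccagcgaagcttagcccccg
Idh1: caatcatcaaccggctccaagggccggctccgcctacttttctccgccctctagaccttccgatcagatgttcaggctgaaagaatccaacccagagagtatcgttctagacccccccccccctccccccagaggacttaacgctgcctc
Hmgcs1: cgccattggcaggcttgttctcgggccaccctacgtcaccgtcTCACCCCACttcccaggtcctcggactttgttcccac

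All 8 enzymes had an entry in the promoter table, with 10 promoters of 250 bases before to 50 after the start. The core TGACNNNGC, searched on both strands, was in promoters of 2 of the 8, at bases -57 to -49 of G6pdx (the GCTCAGTCA in capitals above) and at bases 4 to 12 of the second Pgd promoter (TGACATTGC). It was in 12.4% of all 32851 promoters of that length, so a match by itself is common. The sterol core TCACNCCAC (1.24% of all promoters) and the E-box CACGTG (7.15%), also searched on both strands, were in none of the 10. For Idh1 this says only that these letters are not in the windows searched. Hmgcs1 held the sterol core at bases -137 to -129. A match is a run of letters, not a site shown to be bound.

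Of the 11 other genes of the pentose phosphate pathway and ribose 5-phosphate use, 9 were tested and 0 were called, with 3 unadjusted p below 0.05 in limma and a median log2 fold change of 0.17. The transketolase-like genes Tktl1 and Tktl2 were above background on no array. Groups did not overlap for 3, all higher with LDL. The first was G6pd2, the retrogene copy of G6pdx, at 1.03 (SE 0.15; limma, adjusted p = 0.1). It read -2.06, -1.59 and -1.78 with saline and -0.66, -0.90 and -0.79 with LDL, and since probe sequences were not used here, its signal cannot be told apart from that of G6pdx. H6pd, the enzyme of the endoplasmic reticulum that runs the oxidative steps there, was 0.45 higher (adjusted p = 0.488 in limma) and Pgm2, a mutase of pentose phosphates, 0.47 higher (adjusted p = 0.495 in limma). Rbks, the kinase that brings free ribose into the pathway, differed by 0.17 with groups that overlapped. Without saline 1 the median of these genes was 0.10.

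Other genes linked to NADPH formation, with the kinases that make NADP, had a median of -0.019 in 12 of 13 genes tested. Not all of them form NADPH themselves. In limma 0 were called, and 1 had an unadjusted p below 0.05. Me1, the cytosolic malic enzyme, was the highest: 3.96, 3.45 and 3.36 with saline against 4.48, 4.04 and 4.12 with LDL, without overlap. Its difference was 0.63 (SE 0.20; limma, adjusted p = 0.519). Aldh1l2, a mitochondrial folate enzyme, was at 0.27 with overlap, while Me3, a mitochondrial malic enzyme, was at -0.26 and the mitochondrial NAD kinase Nadk2 at -0.19, both lower without overlap. Without LDL 2, Nadk2 was at -0.12. Me1 also held the antioxidant core, at bases -6 to 3 of its first promoter (TGACTCAGC). Its second promoter held no match, and neither did those of G6pd2 and H6pd, which were also higher with LDL.

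The enzymes that supply Idh1 and Idh2 with isocitrate, or use it to form NADH, showed no separated groups in 7 of 7 tested. Of all features, 5.83% were separated in the higher and 8.78% in the lower direction. None of the 7 were called in limma (0 unadjusted p below 0.05), and the median was -0.0019. The citrate carrier Slc25a1 was at -0.25, the NAD-dependent subunits Idh3a and Idh3b were both at 0.19, and the cytosolic aconitase Aco1 at -0.023. Single arrays moved these values: Slc25a1 was at -0.42 without saline 1 and -0.05 without saline 2, and Idh3a at 0.088 and 0.33. Upper glycolysis, which shares glucose 6-phosphate with G6pdx, had a median of 0.13 over 10 genes, 2 of them higher without overlap, 0 called and 1 unadjusted p below 0.05 in limma. Pfkp, a phosphofructokinase, was at 0.76 with 1 probe and at -0.19 with the other and dimmer one. The glucose transporter Slc2a1 was at 0.45 and Pfkm, another phosphofructokinase, at 0.13, both with overlap, and the isomerase Gpi1 at 0.19 without. These too depended on single arrays, Slc2a1 being at 0.29 without LDL 1, and Gpi1 at 0.12 and Pfkm at 0.087 without saline 3.

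**Figure D4:**
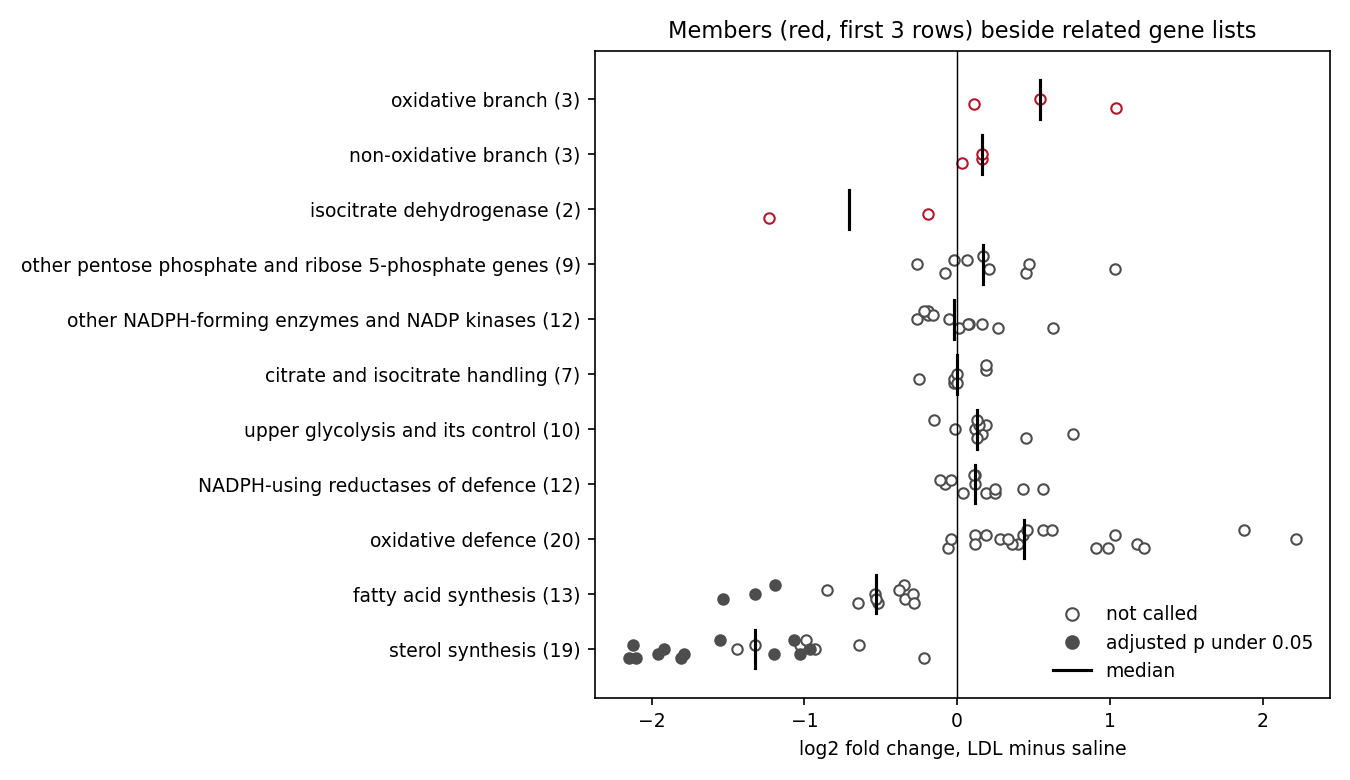
Log2 fold change, LDL minus saline, of the 8 enzymes (red, in 3 branches) and of related gene lists (grey), with each list's number of tested genes in parentheses, its median as a vertical bar and filled points for an adjusted p under 0.05 in limma. The oxidative branch median (0.54) is the value of Pgd alone, with G6pdx at 1.04 and Pgls at 0.11. Without LDL 1 it was 0.28. The median of oxidative defence was 0.44 (0.35 without LDL 1), and that of the non-oxidative branch was 0.16 (0.047 without LDL 1). The isocitrate dehydrogenase median (-0.71) lies between those of fatty acid synthesis (-0.53) and sterol synthesis (-1.32). It is only the midpoint of Idh1 (-1.23) and Idh2 (-0.19), and neither gene lies near it.

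Set beside the lists of the question, only G6pdx (1.04) and Idh1 (-1.23) of the 8 enzymes had intervals that left out 0, on opposite sides. Pgd was at 0.54 with an interval that included 0, and the other enzymes lay between -0.19 and 0.16. Oxidative defence had a median of 0.44, with 13 of 20 genes higher without overlap and none lower, but 0 called in limma and 13 with an unadjusted p below 0.05. Its genes with the smallest p were the heme oxygenase Hmox1 (1.88), Gclc (0.99), Gclm (1.18), the regulatory subunit beside Gclc, and the glutathione transferase Gsta4 (0.62). The array medians of that list, relative to the genes' means with saline, were 0.64, 0.36 and 0.39 on LDL 1, 2 and 3, and those of the oxidative branch were 1.06, 0.32 and 0.24. LDL 1 was the highest array in both, but this was not particular to them. It was also highest for the non-oxidative branch (0.27, 0.038 and 0.13) and upper glycolysis (0.19, 0.17 and 0.10). The other pentose phosphate and ribose 5-phosphate genes were highest on LDL 3 (0.06, 0.082 and 0.26). Reductases of defence that consume NADPH, some of which stand on both lists, had a median of 0.12 over 12 genes, 3 of them higher without overlap and 0 called, with 2 unadjusted p below 0.05 in limma. The largest of these was the thioredoxin reductase Txnrd1 at 0.56, followed by the biliverdin reductases Blvrb at 0.43 and Blvra at 0.25 and the P450 reductase Por at 0.25. The median of this list was 0.06 without saline 3, 0.064 without LDL 1 and 0.20 without saline 2. Blvra was at 0.10 without saline 1 and 0.38 without saline 2, and Por at 0.13 without LDL 1.

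In lipid synthesis, which consumes NADPH, fatty acid genes had a median of -0.53, with 9 of 13 lower without overlap and 3 that fell: Scd1 (-1.53), Srebf1 (-1.32) and Elovl6 (-1.19), at adjusted p of 0.0332, 0.0332 and 0.0145 in limma. Fasn, the fatty acid synthase, which consumes NADPH, was at -0.85 (adjusted p = 0.0681 in limma). Sterol synthesis had a median of -1.32, with 18 of 19 genes lower without overlap and 12 that fell, such as Hmgcs1 (-2.15), Idi1 (-2.10), Fdps (-1.96) and Tm7sf2 (-1.79), with adjusted p from 0.00454 to 0.0125 in limma. Idh1 at -1.23 lay close to the sterol median, and Idh2 at -0.19 was higher than every fatty acid and sterol gene tested, the nearest of which was at -0.22. On LDL 1, 2 and 3 the sterol median relative to saline was -1.16, -1.38 and -1.45, and that of the isocitrate dehydrogenases was -0.63, -0.83 and -0.68. LDL 1 was the least reduced array in both, as it also was for fatty acid synthesis (-0.51, -0.57 and -0.53). No test of the enzymes against these lists was made, since the lists and the enzymes were chosen with results of the same arrays known.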

How the data were processed

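RNA of 3 saline and 3 LDL cultures was hybridized to 1-colour Agilent arrays on 1 slide. The deposited scanner files hold intensity values, from which Agilent Feature Extraction had subtracted the background, per the file headers. The authors also deposited log2 values of the same arrays, with an unstated normalization, so their centring is unknown (column medians 6.54 to 6.56; across probes r = 0.987 to 0.993 with the scanner values). They served as an alternative. Named in the submitters' processing notes are R 3.4.4, limma 3.34.9 and Feature Extraction 10.7.3.1.

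Each array's processed signals were divided by their 75th percentile and taken to log2, without control spots and outlier-flagged spots. A probe was tested if it was well above background on all 3 arrays of a group, which 32920 of 55681 probes met, 73 further ones being left out for a flagged spot. Genes were named by RefSeq accession (GRCm38.p6 table; 28331 probes matched), since no gene name column was used here, and a gene with several probes was represented by the one of highest mean. The groups were compared with limma 3.58.1 under R 4.3.3 (lmFit, eBayes, no covariates, Benjamini-Hochberg). The procedure was run on simulated data with planted differences larger than that of any of the 8 enzymes. That run does not show how often differences of their size are found. The number of arrays limits the precision. The enzymes and gene lists were chosen with earlier results of these data known. Named were all 8 enzymes, from each list the 4 smallest p and up to 4 called genes largest in size, and the 4 nearest profiles of G6pdx and Idh1. A gene that the rule names is not reported here. The promoters shown were chosen after their values were seen. Same-numbered saline and LDL arrays had deviations from their group means that correlated at 0.236, -0.082 and 0.206 across features. Between arrays of different numbers the correlations ran from -0.272 to 0.079. These values do not settle whether the numbers mark pairs. The main fit did not take them as pairs, and a replicate block served as an alternative. Alternatives changed the background correction, scaling, filter, probe summary, variances, blocks and arrays used. Figures were drawn with matplotlib 3.10.9.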

Additional observations from a re-analysis of the deposited data

How the results depend on the processing

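Over 18 alternatives, G6pdx stayed higher (0.84 to 1.18, adjusted p 0.111 to 0.999 in limma) and Idh1 lower (-1.42 to -1.02). Idh1 passed with trended and robust variances (-1.23, adjusted p = 0.0382 in limma) and in the fit without saline 1; leaving out single arrays gave -1.42 to -1.13. The median of the 8 enzymes was 0.066 to 0.24. Signs turned for Pgls when single arrays were left out (-0.025 to 0.26) and for Tkt (-0.048 to 0.086 without single arrays, -0.0043 in slide row 1 alone). Near 0, the sign also turned for the median of other genes linked to NADPH formation (0.02 with median scaling, -0.065 to 0.049 without single arrays). It did so for that of citrate and isocitrate handling (0.049 with normexp and quantile normalization, 0.037 under median scaling, 0.044 in the authors' values, -0.056 to 0.076 without single arrays). The same held for Aco1 (0.06, 0.016 and 0.059 in the same 3 settings, -0.081 to 0.076 without single arrays) and for Idh3b (-0.042 to 0.38 without single arrays). Of all features, the 5 called higher became 9 with normexp, 8 under median scaling, 8 in the authors' values, 16 with trended and robust variances and 3 with outlier-flagged spots kept, an alternative chosen after seeing the data. With slide row as a block 0 were called higher and 15 lower in limma (1581 at an unadjusted p below 0.05). Both counts were 0 in limma without a background filter (1775 at an unadjusted p below 0.05) and in slide row 1 alone (860). Leaving out single arrays gave 0 to 7 higher and 0 to 25 lower, both 0 without LDL 2 (999 unadjusted), LDL 3 (1378) and saline 3 (1556). With a replicate block, 3 were called higher and 11 lower, G6pdx had an adjusted p of 0.111 and Idh1 of 0.213, and the G6pdx minus Idh1 difference was 2.27; the block changed no call among the 8 enzymes. That difference was not run with trended variances or slide row as a block. With 3 arrays a group, even the differences of G6pdx (1.04) and Idh1 (-1.23) did not pass after adjustment in the main fit. Changes of that size or smaller can therefore be missed. Larger ones can be missed too, as Hmox1 at 1.88 (SE 0.35) had an adjusted p of 0.231 in limma. The cause of these changes was not tested.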
